A study of Ovis aries with 16 samples.

Results

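ADRB1 encodes the beta-1 adrenergic receptor, and its probe was followed here through the left ventricle of fetal sheep given angiotensin II or losartan. The gene was found by its name, identifier and description among the probes that are not controls, and 1 of the 15008 probes on the array was its own. ADRB1 is 1 of 986 genes that could be named on the array. It was chosen by its twin ratios on these same arrays, which lay on opposite sides of 0 under the 2 treatments. Its levels and ratios are therefore given as a description, without a test.

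The 16 fetuses came from 8 twin pairs, called twin sets 1 to 8. Surgery took place on days 125 to 126 of a pregnancy that lasts 145 days in this species, and hearts were taken after 5 days of treatment. Angiotensin II was given into a vein of 1 twin in sets 5 to 8, and the untreated twins served for comparison (4 and 4 fetuses). Losartan, which blocks AT1, the main receptor for angiotensin II, was given in the same way in sets 1 to 4, again with untreated twins (4 and 4 fetuses). The labels call the infusions both daily and continuous, and the tissue both left ventricular free wall and free wall with septum, and neither point is settled here. Dose, vehicle and breed are not given in the labels. Each fetus is a separate animal and was assayed on 1 array, so 4 arrays a group limited the precision.

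The beta-1 receptor is the main beta-adrenergic receptor of heart muscle. Noradrenaline from sympathetic nerves and circulating adrenaline bind it, it couples through the stimulatory G protein to adenylyl cyclase, and the cyclic AMP made there activates protein kinase A. That kinase acts on calcium channels and contractile proteins, so that the heart beats faster and with more force. Angiotensin II is the active hormone of the renin-angiotensin system. It raises blood pressure and acts on the heart chiefly through AT1.

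All values for the receptor rest on a single 60-base probe, A_70_P017101, shown in full because no other probe can stand in for it.

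ADRB1 probe: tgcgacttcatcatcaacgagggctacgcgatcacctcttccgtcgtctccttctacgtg

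Per the array's annotation the probe starts at base 378 of a 1040-base sheep ADRB1 mRNA record, and the files give it no genome position. Its G and C content was 55.0%, against a median of 43.3% over all probes, and 11.8% of probes had as much or more. No other probe on the array shared a run of 16 bases with it on either strand. It was printed as 1 spot, in grid row 54 of 192 and column 4 of 82.

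Per array, 8602 to 9617 of the 15008 probes were well above background (57.3% to 64.1%), and the 75th percentile of the processed signal was 1099 to 1670 fluorescence units. Levels below are log2 processed signals minus that percentile of the same array, so a negative level lies under it. Corner spots are hybridization controls that match no sheep gene. Their log2 signal was 17.24 to 17.73 on 3 arrays and 14.40 to 15.36 on the other 13. These 3 bright-corner arrays were the angiotensin II fetuses of sets 7 and 8 and the untreated twin of set 2, all on slide 2 in the same array row. They also stood apart on the first principal component (32.0% of the variance), with scores of 30.1 to 39.8 against -19.0 to -0.44. Cardiac muscle markers were high in sum on every array (MYH7, TPM1 and MB, 3 of 17 on the list with a tested probe). Their summed log2 level was 7.02 to 7.17 in angiotensin II fetuses and 7.05 to 7.27 in losartan fetuses. It was 7.04 to 7.30 in the untreated twins of angiotensin II and 7.06 to 7.36 in those of losartan. TPM1 and MB (mean log2 levels 6.21 and 5.97) made up most of this sum, and MYH7 (1.53) little of it. The estimated log2 change of MYH7 was 0.61 with angiotensin II and -0.70 with losartan. That of TPM1 was -0.058 and -0.072, that of MB -0.18 and 0.066, and none of the 3 passed the limma threshold given below. MYH7 was also higher on each of the 3 bright-corner arrays than on any other.

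The ADRB1 probe was well above background on 16 of 16 arrays, and on none was it saturated or marked as an outlier. Its mean signal was 5.88 to 15.9 times the local background. The scanner software's own error for the spot was 10.0% to 17.7% of the processed signal. The receptor's mRNA was thus measured in every fetus, at a signal under the 75th percentile of its array.

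In the angiotensin II arm the processed signal of ADRB1 was 203, 278, 468 and 388 fluorescence units in the treated fetuses of sets 5 to 8, against 211, 232, 323 and 217 in their untreated twins. After scaling, the log2 levels were -2.69, -2.46, -1.81 and -1.80 with angiotensin II, against -2.76, -2.72, -2.29 and -2.52 in the twins. The treated fetuses of sets 7 and 8 lay above all 4 untreated twins, and those of sets 5 and 6 lay within the twins' range, so the groups overlapped.

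In the losartan arm the processed signal was 293, 221, 199 and 268 fluorescence units in the treated fetuses of sets 1 to 4, against 272, 495, 275 and 310 in their untreated twins. The log2 levels were -2.51, -2.41, -2.56 and -2.30 with losartan, against -2.01, -1.56, -2.38 and -2.20 in the twins. The untreated twin of set 2 was the highest of the 16 arrays, and the untreated twin of set 3 lay below the losartan fetus of set 4, so these groups overlapped too.

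**Figure D1:**
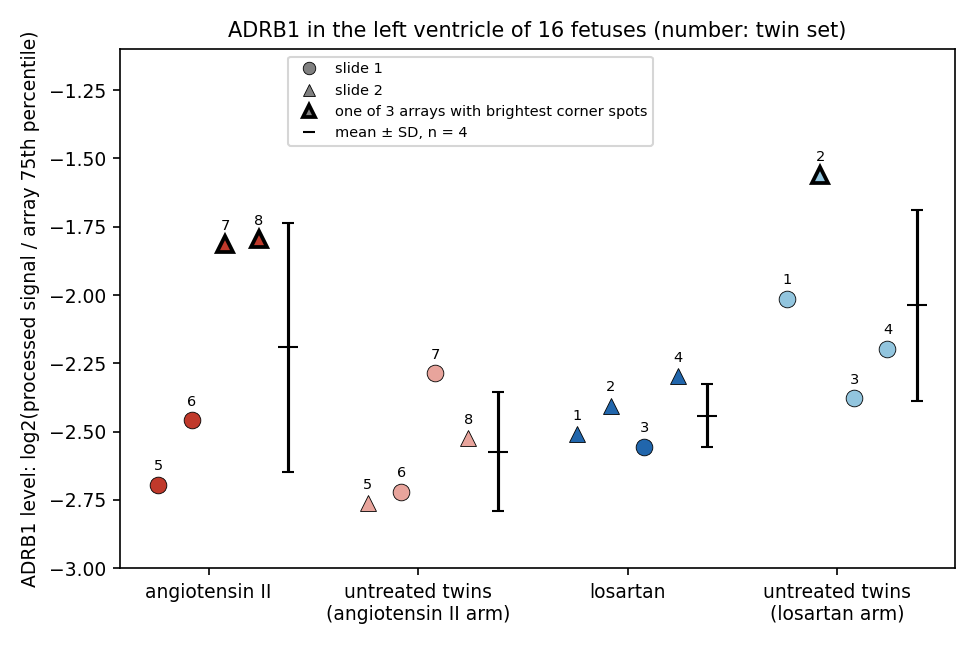
ADRB1 log2 level, relative to the 75th percentile of each array, for the 16 fetuses by group, with the mean and SD of each group (n = 4). The 3 highest values, -1.56, -1.80 and -1.81, belong to the 3 bright-corner arrays, and treated and untreated groups overlap in both arms.

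Ordered by mean log2 level, the groups ran from the untreated twins of losartan (-2.04 ± 0.35) through angiotensin II (-2.19 ± 0.46) and losartan (-2.44 ± 0.12) to the untreated twins of angiotensin II (-2.57 ± 0.22; SD, n = 4 each). Neighbouring groups in this order lay closer together than the larger of their SDs. Both treated means thus lay between the means of the 2 untreated groups. Since the tissue was assayed in bulk, fewer cells that express a gene and less of its RNA per cell cannot be told apart.

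Within twin sets, the log2 ratio of the angiotensin II fetus to its untreated twin was 0.068, 0.26, 0.47 and 0.73 in sets 5 to 8. The mean was 0.38 ± 0.28 (SD, n = 4), or 1.30-fold. All 4 ratios were above 0, and those of sets 7 and 8, whose treated arrays had bright corners, were the highest.

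The log2 ratio of the losartan fetus to its untreated twin was -0.50, -0.84, -0.18 and -0.10 in sets 1 to 4. The mean was -0.40 ± 0.34 (SD, n = 4), or 1.32-fold lower. All 4 ratios were below 0, and that of set 2, whose untreated array had bright corners, was the lowest. The mean angiotensin II ratio exceeded the mean losartan ratio by 0.79.

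**Figure D2:**
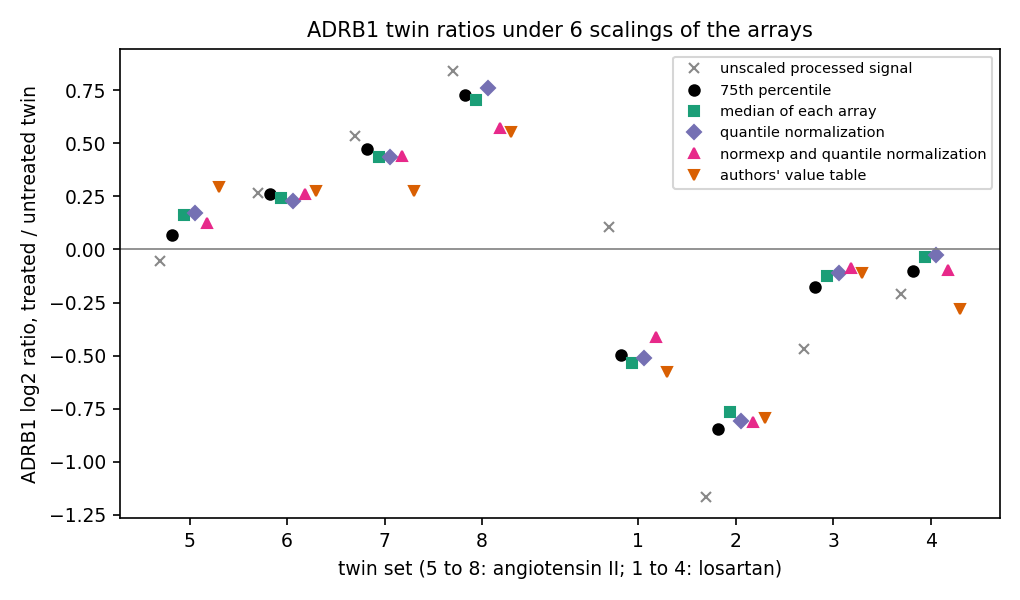
Log2 ratio of ADRB1 in the treated fetus to its untreated twin for each of the 8 twin sets, in the unscaled processed signal and in 5 scaled versions. With the scaling used for the levels in the text, the 4 angiotensin II ratios are 0.068 to 0.73 and the 4 losartan ratios -0.84 to -0.10. With that scaling, the ratio in sets 3, 4, 5 and 6 is smaller than its error. In the unscaled signal the ratios are -0.054 to 0.84 with angiotensin II and -1.16 to 0.11 with losartan. There, sets 5 and 1 have the opposite sign to the rest of their arms.

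Propagated from both spots, the scanner's error of a ratio was 0.23 to 0.34 on the log2 scale. In sets 1, 2, 7 and 8 the ratio was 1.82, 2.88, 2.04 and 2.64 times its error in size. In sets 3, 4, 5 and 6 it was 0.55, 0.37, 0.20 and 0.91 of its error, so the sign in these 4 sets rests on differences smaller than the scanner error of 1 spot pair.

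Many probes had the same pattern of signs. With angiotensin II, 7.68% of the 8971 tested probes were higher in the treated twin in 4 of 4 sets, and with losartan 11.1% were lower in 4 of 4. ADRB1 was 1 of 276 probes (3.08%) that met both, and 243 (2.71%) showed the mirror image. Because these signs chose the gene, nothing is read from its place among them.

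Among the 8 untreated fetuses the log2 level of ADRB1 ranged from -2.76 to -1.56 (median -2.33, SD 0.39). The mean shift was 0.97 of this SD with angiotensin II and -1.03 with losartan. Both treatment shifts were thus about as large as the spread among fetuses that received nothing. Without the untreated twin of set 2 the SD was 0.27 (n = 7), and the same shifts came to 1.39 and -1.47 of it. ADRB1 was not among the 430 probes (4.79%) with both mean shifts, up with angiotensin II and down with losartan, larger than the SD of the 8 untreated fetuses.

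The 2 untreated groups differed from each other by more than either treatment shift. The untreated twins of losartan exceeded the untreated twins of angiotensin II by 0.54 on the log2 scale (1.45-fold), and by 0.38 without the untreated twin of set 2. As a description over the 8971 tested probes, 2.07% had an untreated difference at least as large (median 0.11). By the same count 10.4% had an angiotensin II shift as large as that of ADRB1 (median 0.15), 9.79% a losartan shift as large (median 0.13) and 13.8% an untreated SD as large (median 0.22). The treated fetuses differed less: angiotensin II exceeded losartan by 0.25, and without sets 7 and 8 the difference was -0.13.

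The 3 highest ADRB1 levels were those of the 3 bright-corner arrays (-1.81 to -1.56), and the other 13 arrays ran from -2.76 to -2.01. Of the tested probes, 1015 (11.3%) were likewise higher on each of these 3 arrays than on any other, and 887 (9.89%) were lower. The 182 spots printed nearest to the ADRB1 spot had a median deviation from their own means of -0.13 to 0.017 on the 3 arrays and -0.10 to 0.13 on the other 13. The scanner software had already removed spatial trends from these signals, so the medians cannot show whether that area of the array was bright. Without sets 2, 7 and 8 the mean ratio was 0.17 ± 0.14 with angiotensin II (SD, n = 2) and -0.26 ± 0.21 with losartan (SD, n = 3), and they differed by 0.42. The signs held in the 5 remaining sets, of which set 1 alone had a ratio above its scanner error. What part the bright-corner arrays have in the ADRB1 ratios beyond these values was not tested.

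**Figure D3:**
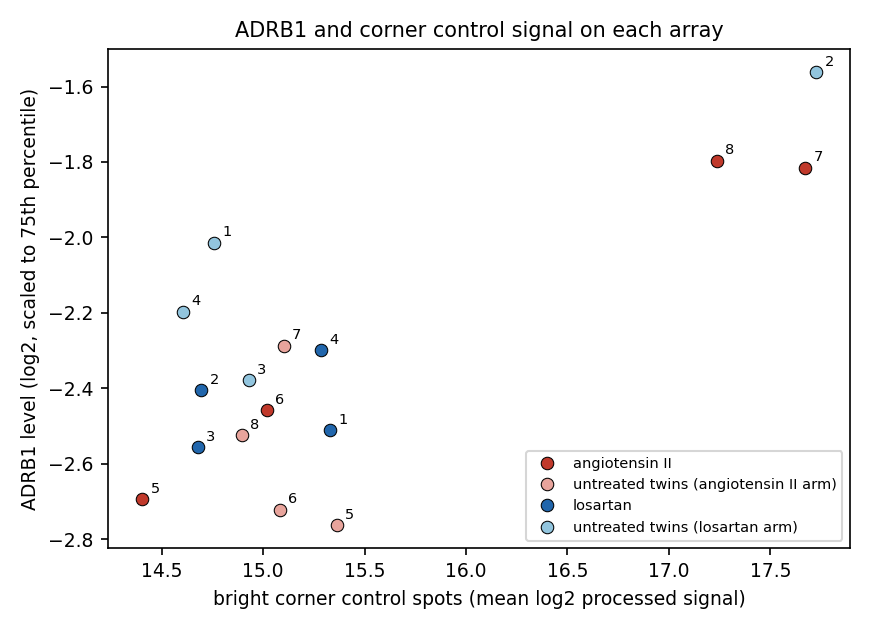
ADRB1 log2 level against the log2 signal of the corner control spots on the 16 arrays, by group. The 3 arrays with corner signals of 17.24 to 17.73 hold the 3 highest ADRB1 levels, and the other 13 lie at 14.40 to 15.36.

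Twins shared a slide in sets 2, 3, 6 and 8. In the angiotensin II arm the ratios were 0.26 and 0.73 on a shared slide and 0.068 and 0.47 across slides. In the losartan arm they were -0.84 and -0.18 on a shared slide and -0.50 and -0.10 across slides. Compared within a slide and without regard to twins, ADRB1 differed by -0.073 with angiotensin II on slide 1 (2 fetuses against 2) and by 0.84 on slide 2 (2 against 2, both treated arrays with bright corners). The losartan difference was -0.36 on slide 1 (1 fetus against 3) and -0.84 on slide 2 (3 against 1, the untreated array with bright corners). The angiotensin II difference was therefore slightly below 0 within slide 1, and the losartan shift kept its sign on both slides.

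The scaling of the arrays set the sign in 2 of the 8 sets. In the unscaled processed signal ADRB1 had a log2 ratio of -0.054 with angiotensin II in set 5 and of 0.11 with losartan in set 1. In each of the 5 scaled versions all 8 ratios kept the signs given above, with means of 0.35 to 0.40 for angiotensin II and -0.44 to -0.35 for losartan. The authors' value table, used after conversion to log2, gave ratios of 0.30, 0.28, 0.28 and 0.55 with angiotensin II in sets 5 to 8. It gave -0.58, -0.79, -0.11 and -0.28 with losartan in sets 1 to 4. There, 2 of the 3 bright-corner arrays were among the 3 highest for ADRB1, and the untreated twin of set 1 was the other.

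**Figure D4:**
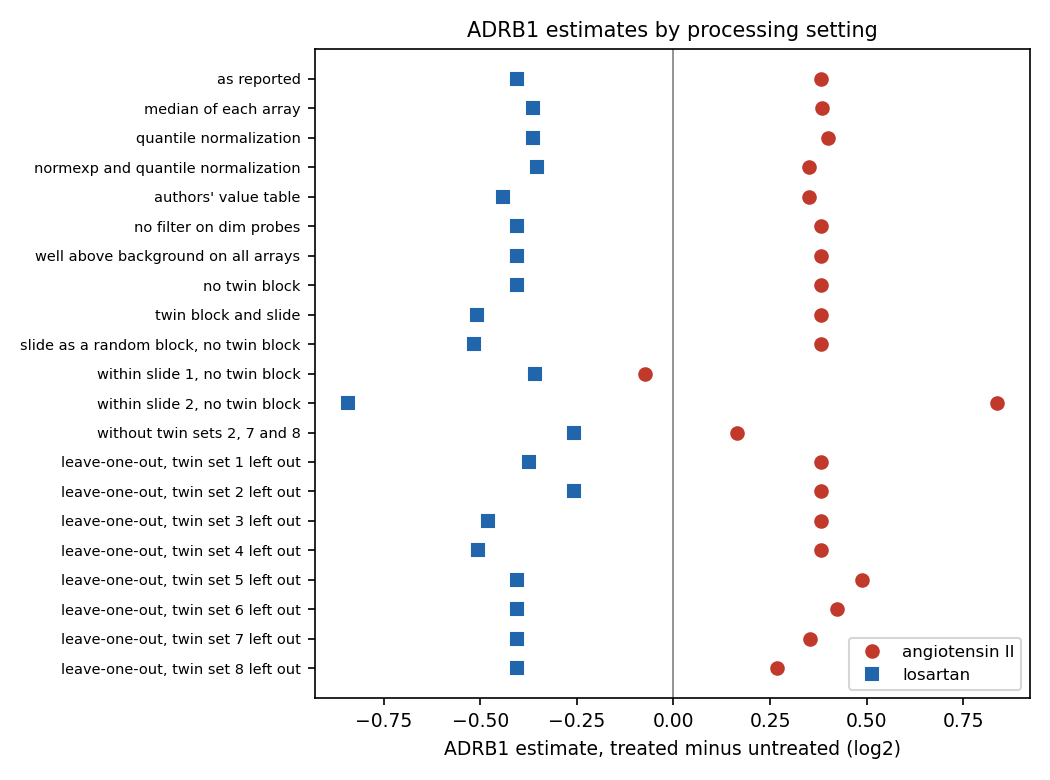
Estimate for ADRB1 (treated minus untreated, log2) with angiotensin II and with losartan under each processing setting, the top line as reported. The angiotensin II value is above 0 in 19 of 20 alternatives, the exception being -0.073 within slide 1, and the losartan value is below 0 in 20 of 20. Alternatives that change the background filter or leave out a twin set of the other arm could not move a value.

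Few partners of the receptor could be read on this array. Of 59 other genes of beta-adrenergic signalling, 5 had a probe that could be named, and 3 of these were bright enough to test. ADRB3, the beta-3 receptor, was well above background on 0 of 4 angiotensin II arrays, 2 of 4 losartan arrays, 2 of 4 arrays of the untreated twins of angiotensin II and 1 of 4 of those of losartan. SLC6A2, the transporter that takes noradrenaline back into nerve endings, was well above background on 0 of 16 arrays.

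The 3 tested partners belong to the protein kinase A branch, and 0 of 3 passed in either direction under either treatment (limma, Benjamini-Hochberg adjusted over all tested probes). For comparison, 0% of tested probes passed with angiotensin II (0 of 8971, with 938 at an unadjusted p under 0.05) and 1.22% with losartan (109, of which 20, or 0.223% of probes, rose and 89, or 0.992%, fell). Their median log2 change was 0.16 with angiotensin II and -0.16 with losartan, beside -0.026 and 0.0071 over all tested probes. PRKACA, the catalytic subunit alpha of the kinase, had estimates of 0.12 with angiotensin II (SE 0.11, limma adjusted p = 0.646) and -0.16 with losartan (SE 0.11, limma adjusted p = 0.590). PRKAR1A, a regulatory subunit that holds the kinase inactive until cyclic AMP binds, had 0.16 (SE 0.11, limma adjusted p = 0.548) and -0.12 (SE 0.11, limma adjusted p = 0.698).

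CREB1, a transcription factor that the kinase phosphorylates, had the largest estimates of the 3, at 0.34 with angiotensin II (SE 0.17, limma adjusted p = 0.487) and -0.29 with losartan (SE 0.17, limma adjusted p = 0.527). Its log2 ratios were 0.11, -0.045, 0.68 and 0.59 in sets 5 to 8 and -0.085, -0.81, 0.085 and -0.34 in sets 1 to 4. Its ratios were furthest from 0 in sets 2, 7 and 8. Those of ADRB1 were furthest from 0 in sets 2 and 8, with sets 1 (-0.50) and 7 (0.47) next and nearly equal in size. Like ADRB1, CREB1 was higher on each of the 3 bright-corner arrays than on any other. Its Pearson's r with ADRB1 was 0.71 over 16 arrays and -0.13 over the other 13. The difference between the 2 effects on CREB1 was 0.62 (limma adjusted p = 0.192), against 1.64% of probes past the threshold for that difference. It passed in the authors' value table (0.58, limma adjusted p = 0.0422), where 1734 of the 8971 tested probes passed for that difference. Within slide 2, with 1 untreated array in the losartan arm, the difference was 1.42. The call of CREB1 thus depends on the processing. CREB1 was well above background on 13 of 16 arrays. These were 2 of 4 losartan arrays, 3 of 4 of their untreated twins and 4 of 4 in each group of the angiotensin II arm. Its losartan values thus lie near the background, and its other probe was too dim to test.

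Markers of other cells were set beside the receptor. Of 7 smooth muscle genes 3 were tested, and their summed log2 level was 5.71 to 6.25 with angiotensin II, against 4.87 to 5.44 in the untreated twins. With losartan it was 3.74 to 4.34, against 4.91 to 5.45 in the untreated twins. Treated and untreated groups thus did not overlap in either arm, but how many of all tested probes were separated likewise was not counted. MYL9 and CNN1 (mean log2 levels 4.53 and 3.18) made up most of this sum, and MYLK (0.54) little of it. MYL9, the myosin regulatory light chain, and CNN1, calponin, fell with losartan by 1.06 (limma adjusted p = 0.00857) and 1.42 (limma adjusted p = 0.0249), while MYLK, a kinase of that light chain, did not pass (-0.36). No probe passed with losartan in the fit with no twin block or in that with slide as a random block, so the calls of MYL9 and CNN1 were lost there. With angiotensin II none of the 3 passed, with estimates of 0.93 for MYL9, 1.09 for CNN1 and -0.20 for MYLK, which was higher in 1 of 4 sets. The smooth muscle sum lay on the same side of the untreated twins as the ADRB1 mean in both arms, while MYLK did so with losartan alone, and the part of these genes in the ADRB1 ratios was not tested. No marker of the fibroblast (4 tested of 9), endothelial (2 of 9), leukocyte (1 of 10), erythroid (1 of 7) or adipocyte (2 of 5) lists passed, and of 8 nerve markers none had a named probe.

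Likeness to ADRB1 was measured as Pearson's r over the 16 arrays for 498 other named genes, each by its brightest tested probe. The highest were TIMP3, an inhibitor of matrix proteases (r = 0.86), ACVR2B, an activin receptor (0.84), RPA1, a protein that binds single-stranded DNA (0.84), COL1A2, a chain of type I collagen (0.82), and ALDOA, an enzyme of glycolysis (0.81). The lowest were RABGGTB (-0.80), TRIP4 (-0.76), ITGB1 (-0.72), TCP1 (-0.71) and IGFBP4 (-0.71). These are descriptions across arrays that share slides and litters, and the median r over the 498 genes was 0.24.

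The likeness was lower without the 3 bright-corner arrays. Over the other 13 arrays r was 0.38 for TIMP3, 0.28 for ACVR2B, 0.46 for RPA1, 0.21 for COL1A2 and 0.40 for ALDOA. Over 16 arrays 120 genes had an r above 0.5, and over 13 arrays 6 did. All 5 genes most like ADRB1 were higher on each of the 3 bright-corner arrays than on any other, as were 76 of the 498 (15.3%). ADRB1 was itself highest on these 3 arrays, so a ranking by r over 16 arrays favours such genes, and nothing further is read from this. TIMP3, for example, lay at -2.28 to -1.67 on those 3 arrays and at -3.86 to -3.01 on the other 13.

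**Figure D5:**
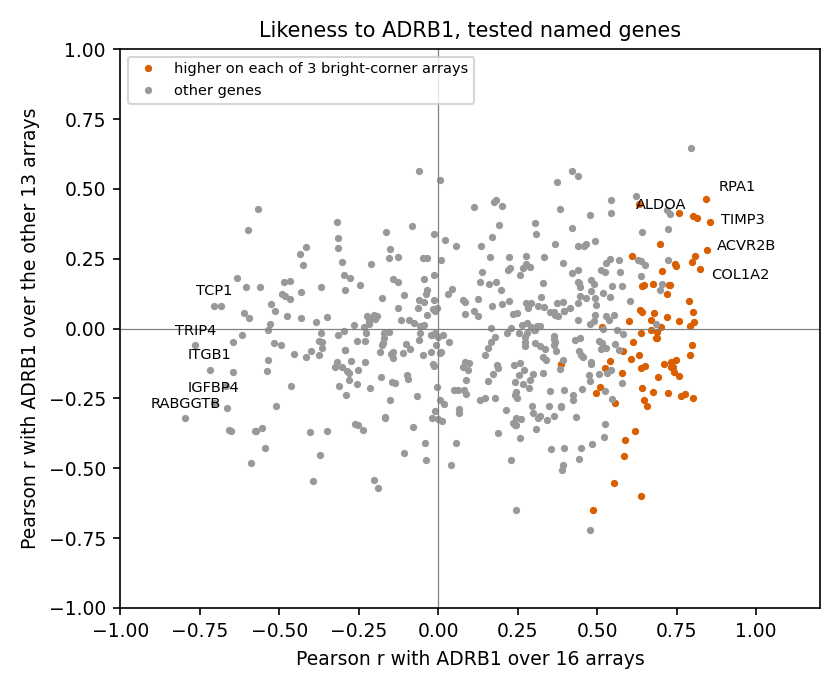
Pearson's r of each of 498 named genes with ADRB1 over 16 arrays (horizontal) and over the 13 arrays without bright corners (vertical), with the 5 highest and 5 lowest named. Genes higher on each of the 3 bright-corner arrays lie to the right, and their r over 13 arrays is lower, for TIMP3 0.38 against 0.86.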

How the data were processed

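Deposited scanner files of 16 one-colour (Cy5) Agilent sheep arrays hold a spot intensity per probe, per the file headers. Agilent software (Feature Extraction 10.7.3.1) had subtracted the background and removed spatial trends, and arrays had not been normalized against each other. The flags for background, saturation and outliers are the deposited scanner software's. The authors' deposited value table follows the natural log of mean spot signals (lowest r of any array 0.9978). How it was made is not given in the sources. It served as an alternative, and its column medians were 5.755 to 5.768. Its scale was found by this comparison, and any centring beyond it is not known. RNA integrity numbers were 7.5 to 10, per the labels.

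Control spots and outlier spots (3 to 9 per array) were left out and spots of 1 probe averaged. From the log2 processed signal the array's own 75th percentile was subtracted. A probe was tested if 1 or more groups had it well above background on all 4 arrays (8971 probes). limma 3.58.1 (R 4.3.3) was fitted on all 16 arrays with twin set as a block and 1 term per treatment (6 residual degrees of freedom), two-sided, with a Benjamini-Hochberg adjusted p under 0.05 as threshold. The script was tested on simulated data. Names came from the files or the RefSeq gene table of ARS-UI_Ramb_v3.0, which named 1596 probes and left 13412 without a name. Genes were named if they were ADRB1, members of the signalling or marker lists, or the 5 most and 5 least like ADRB1. The gene, the lists and the alternatives were chosen with earlier results of these data known.

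Twin sets, and so the pairing, are stated in the labels. Deviations of twins from their group means correlated at 0.22, 0.24, 0.46, 0.08, -0.04, 0.28, 0.15 and 0.53 in sets 1 to 8. Alternatives covered scaling, background correction, the filter, the blocks, slides and left-out sets. Figures were drawn with matplotlib 3.10.9 and numpy 2.4.6 in Python 3.11.15.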

Additional observations from a re-analysis of the deposited data

Results flagged for a closer look

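ADRB1 was higher in the angiotensin II fetus than in its untreated twin in 4 of 4 sets and, with losartan, lower than in the untreated twin in 4 of 4 sets. The mean ratios differed by 0.79 on the log2 scale. This difference was not tested, because the gene was chosen for it.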

How the results depend on the processing

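Over 20 alternatives the ADRB1 shift with angiotensin II stayed above 0 in 19 and that with losartan below 0 in 20. Not all of these could move an ADRB1 value. Changing the background filter, or leaving out a twin set of the other arm, left it as it was. The angiotensin II value was also 0.38 with slide added to the twin block and with slide as a random block. Such repeats say nothing further on the sign. Within slide 1 the angiotensin II value was -0.073 and the difference between treatments 0.29. Within slide 2 the values were 0.84 with angiotensin II, -0.84 with losartan and 1.68 for the difference. Leaving out each twin set in turn gave 0.27 to 0.49 with angiotensin II, -0.51 to -0.26 with losartan and 0.64 to 0.89 for the difference. Without the twin block the ADRB1 means were the same (0.38 and -0.40), since the design is balanced. The count of probes past the threshold with losartan, 109 as reported, was 0 with no twin block, 71 with the twin block and slide, 0 with slide as a random block, 57 with the stricter background filter and 434 in the authors' value table. It was 41 within slide 1, 546 within slide 2 and 33 to 99 leaving out each twin set, with 61, 33 and 49 without sets 1, 3 and 4. With angiotensin II, 0 as reported, it was 353 within slide 2 and 1 without twin sets 2, 7 and 8. Of the beta-adrenergic calls, 0 as reported, there was 1 in the authors' value table. It was that of CREB1 for the difference between treatments, where 1734 of the 8971 tested probes passed. Within slide 2 the CREB1 estimates were 0.67 with angiotensin II, -0.75 with losartan and 1.42 for the difference. The fits within 1 slide used no twin block and, with losartan, had 1 array in an arm, assumed to vary like the others. Averaging several ADRB1 probes was not run, since there is 1 probe. With 1 spot per array, ADRB1 ratios below 0.23 to 0.34, depending on the set, lie within the scanner error.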
